A study of Gallus gallus with 5 samples.

Results

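Cell adhesion and extracellular matrix genes were examined in DT40, a chicken line of B cell origin that grows in suspension. The genes were those of the collagen, laminin, integrin, cadherin, teneurin and syndecan families, chosen by symbol alone (COL, LAMA, LAMB, LAMC, ITGA, ITGB, CDH, TENM or SDC followed by a digit, with collagens limited to symbols that name an alpha chain). Of 103 such symbols in the gene table, 52 had a named probe on the array and 37 of these reached a signal well above background on 1 or more of the 5 arrays. They were 37 of 4488 named genes that passed the same filter. Among them were 16 collagen chains, 7 integrin subunits, 5 cadherins, 2 laminin chains, 2 teneurins and 2 syndecans. The prefix also brought in 3 genes that are no integrin chains. These were ITGB1BP1, whose product binds an integrin tail, ITGB1BP3, which in mammals is a nicotinamide riboside kinase of muscle, and ITGB3BP, which in mammals is a protein of the centromere.

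The lines were a double knockout of both isoforms of the histone variant H2A.Z that stably expressed 5KR-H2A.Z (the 5KR-H2A.Z line), the same knockout expressing H2A-H2A.Z (the H2A-H2A.Z line), the knockout expressing H2A.Z.1 (the H2A.Z.1 line), the double knockout itself (DKO), and wild-type cells labelled cl18 (WT). In the plots the names of the first 3 carry the prefix DKO+. H2A.Z replaces the histone H2A in some nucleosomes, and the series title places the question in its N-terminal tail. Every culture, WT included, had been kept for 72 hours in tetracycline at 2 µg/ml, which the labels give as the means of suppressing a repressible H2A.Z.1 transgene. Each line was measured as 1 culture on 1 array. No difference below therefore has a replicate, an error or a test, and all are descriptions of these 5 hybridisations. The labels do not say whether a line is 1 clone, and differences between clones cannot be told apart from those between genotypes. For 1 array the title and the source name give the double knockout while the description and the genotype field give the line with H2A.Z.1. The title was followed here, and every direction drawn against DKO depends on that.

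Collagens are secreted trimers that build fibrils, networks and basement membranes, and laminins are the other main polymer of basement membranes. Integrins are heterodimeric receptors that bind these matrix proteins or, on leukocytes, other cells. Cadherins join like cells through calcium-dependent contacts, teneurins bind adhesion receptors on neighbouring cells, and syndecans carry heparan sulphate chains at the cell surface. Leukocytes are known mainly for their integrins, while most fibrillar collagens and classical cadherins are known from connective tissue, epithelium and neurons.

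The 5KR-H2A.Z line and the H2A-H2A.Z line were hybridised on 1 slide and the H2A.Z.1 line, DKO and WT on another. Line and slide cannot be told apart wherever lines of different slides are compared. Between 29137 and 30574 of 43803 non-control spots were well above background, with no saturated spot, and the median SD between replicate spots of 1 array was 0.0522 to 0.0648 on the log2 scale. The DKO array had the lowest number of spots well above background. Both probes for H2AFZ, which encodes H2A.Z.1, were lower than in WT in all 4 knockout lines, by 24.8-fold to 33.4-fold with one probe and 82.6-fold to 99.0-fold with the other. On the log2 scale defined below, these probes read 0.81 and -0.31 in the H2A.Z.1 line, 1.11 and -0.37 in DKO, and 5.87 and 6.17 in WT. They read 1.24 and -0.20 in the 5KR-H2A.Z line and 0.92 and -0.46 in the H2A-H2A.Z line. In the library labelled as having H2A.Z.1 they therefore show no expression of it beyond that of DKO, and do not bear out its label. The readings of the 5KR-H2A.Z and H2A-H2A.Z lines were likewise close to those of DKO, so the probes do not single out the H2A.Z.1 line. Where in the transcript the probes lie, and whether the construct holds that part, was not tested. The names of the lines stand throughout for libraries so labelled. Of 12 measured B cell markers, 11 or 12 were well above background on each array. Of 12 measured fibroblast and smooth muscle markers, 2 or 3 were well above background on each array. In this list TWIST1 and MYL9 were well above it on all 5 arrays, and PDGFRA, PRRX1, DCN, TAGLN and FAP on none. The summed level of that list was 0.0693 to 0.0931 times an array's 75th percentile, against 225 to 273 times for the B cell list. Of 3 endothelial markers KDR and ERG, and of 3 epithelial markers EPCAM, were not well above background on any array. The endothelial marker CLDN5 and the epithelial marker CLDN3 were well above it on all 5 arrays, and the epithelial marker CLDN1 in WT alone. Of 7 myeloid and thrombocyte markers 6, and of 6 T cell markers 4 or 5, were well above background, and of 3 erythroid markers LMO2 was. The summed level of the myeloid list was 40.4 to 52.4 in the 4 knockout lines, against 63.2 in WT. That of the T cell list was 65.9 to 75.9 in the knockout lines, against 83.5 in WT, and that of the erythroid list 0.0303 to 0.114 in the knockout lines, against 0.268 in WT. The myeloid sum was mostly CD74, with a log2 level of 4.96 to 5.36 in the knockout lines and 5.51 in WT. Most of the rest was CTSS, at 2.82 to 3.57 in the knockout lines and 3.90 in WT. The T cell sum was nearly all CD3D, with a log2 level of 6.04 to 6.24 in the knockout lines and 6.38 in WT. CD3E went the other way, at -3.09 to -1.82 in the knockout lines and -5.71 in WT. The part of these lists in the values below was not tested.

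Levels below are log2 processed signals on which 0 is the array's 75th percentile. They compare 1 gene between arrays and not one gene with another. A gene is called apart where 2 arrays differ by at least 2-fold. Where no probe of a gene was well above background on 1 of the arrays, the fold is a lower bound computed from the dimmest signal that was well above background there, or from the gene's own signal if that was higher.

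CDH2 (N-cadherin, which joins neurons, muscle precursors and mesenchymal cells) was highest in WT and differed widely between the knockout lines. Its level was -6.32 in the 5KR-H2A.Z line, -4.23 in the H2A-H2A.Z line, -7.18 in the H2A.Z.1 line, -8.78 in DKO and -2.92 in WT. The H2A-H2A.Z line stood next to WT, and the gene was not well above background in the H2A.Z.1 line and DKO. CDH2 was therefore at least 16-fold below WT in DKO, and at least 19.1-fold lower in the H2A.Z.1 line than in WT. On the other slide it was 4.27-fold lower in the 5KR-H2A.Z line than in the H2A-H2A.Z line, and across slides it was at least 7.74-fold higher in the H2A-H2A.Z line than in the H2A.Z.1 line. With normexp background correction, which damps dim signals, all 4 differences were smaller. On the log2 scale they were -1.55 for DKO minus WT, -1.78 for the H2A.Z.1 line minus WT, 1.05 for the H2A-H2A.Z line minus the H2A.Z.1 line, and -0.74, under 2-fold, for the 5KR-H2A.Z line minus the H2A-H2A.Z line. The bounds above do not hold under normexp. A further probe of CDH2 gave the same order at its top, -4.37 in the H2A-H2A.Z line and -2.92 in WT.

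CDH4 (R-cadherin, named for the retina) was likewise highest in WT and next highest in the H2A-H2A.Z line. Its level was -6.07 in the 5KR-H2A.Z line, -5.0 in the H2A-H2A.Z line, -6.27 in the H2A.Z.1 line, -6.51 in DKO and -3.78 in WT. It was 6.63-fold lower in DKO than in WT and 5.63-fold lower in the H2A.Z.1 line than in WT. It was 2.11-fold lower in the 5KR-H2A.Z line than in the H2A-H2A.Z line, and 2.42-fold higher in the H2A-H2A.Z line than in the H2A.Z.1 line. CDH20, a type II cadherin, was also highest in WT, at -4.26 in the 5KR-H2A.Z line, -4.36 in the H2A-H2A.Z line, -5.18 in the H2A.Z.1 line, -5.10 in DKO and -3.81 in WT. It was 2.46-fold lower in DKO and 2.60-fold lower in the H2A.Z.1 line than in WT. With normexp both genes kept these directions, but 5 of the differences were under 2-fold on the log2 scale. Those of CDH4 were -0.93 for DKO minus WT, -0.31 for the 5KR-H2A.Z line minus the H2A-H2A.Z line and 0.50 for the H2A-H2A.Z line minus the H2A.Z.1 line. Those of CDH20 were -0.53 for DKO minus WT and -0.73 for the H2A.Z.1 line minus WT. That of CDH4 for the H2A.Z.1 line minus WT was -1.25 and stayed past 2-fold.

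CDH11, the cadherin of osteoblasts and other mesenchymal cells, had another pattern. Its level was -5.96 in the 5KR-H2A.Z line, -6.51 in the H2A-H2A.Z line, -6.51 in the H2A.Z.1 line, -4.18 in DKO and -6.28 in WT. DKO stood alone at the top and the other 4 lines lay within 0.55 of each other. CDH11 was 4.28-fold higher in DKO than in WT, by both probes well above background on the 2 arrays, and 5.02-fold lower in the H2A.Z.1 line than in DKO. With normexp the log2 differences were 0.94, just under 2-fold, and -1.06. CDH10 was well above background in the H2A.Z.1 line alone, at -6.65, so close to the background of the other arrays that no bound reached 2-fold. CDH1 (E-cadherin), CDH5 (the cadherin of vessels), CDH6, CDH7, CDH8, CDH13, CDH17 and CDH19 were not well above background on any array. CDH11 lies next to CDH5 on one side and to CDH8 on the other in the gene table, and neither neighbour was well above background in DKO.

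TENM2 and TENM3 are transmembrane proteins known best for pairing neurons. TENM2 had a level of -1.19 in the 5KR-H2A.Z line, -0.44 in the H2A-H2A.Z line, -2.75 in the H2A.Z.1 line, -1.56 in DKO and -0.86 in WT. The H2A.Z.1 line was the lowest of the 5 lines. It was 2.29-fold below DKO and 3.70-fold below WT, while the 5KR-H2A.Z line was 2.94-fold and the H2A-H2A.Z line 4.96-fold above it. The log2 difference between the H2A.Z.1 line and DKO was under 2-fold with spike-in scaling, at -0.65, and in the authors' value table, at -0.96. TENM3 was brighter and varied less, at 1.31 in the 5KR-H2A.Z line, 1.44 in the H2A-H2A.Z line, 1.27 in the H2A.Z.1 line, 2.13 in DKO and 1.1 in WT. It was 2.04-fold higher in DKO than in WT by 1 of 3 probes, and that call held in 4 of 9 other processing settings. TENM1 was not well above background on any array.

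SDC4, a syndecan that acts with integrins at sites of attachment, separated the lines in a different way. Its level was -2.85 in the 5KR-H2A.Z line, -4.03 in the H2A-H2A.Z line, -3.86 in the H2A.Z.1 line, -1.46 in DKO and -1.48 in WT. DKO and WT had nearly the same level, and the 3 lines labelled as expressing an H2A.Z construct lay below both. SDC4 was 5.29-fold lower in the H2A.Z.1 line than in DKO and 5.20-fold lower than in WT. It was 2.26-fold higher in the 5KR-H2A.Z line than in the H2A-H2A.Z line, a log2 difference that came to 0.83 with normexp and 0.94 with spike-in scaling. Its difference of 2.01-fold between the 5KR-H2A.Z line and the H2A.Z.1 line was past the threshold in 4 of 9 other settings. The gene has 1 probe, so no further probe bears on these values.

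SDC2, another syndecan, was well above background in WT alone. Its level was -8.59 in the 5KR-H2A.Z line, -8.86 in the H2A-H2A.Z line, -9.25 in the H2A.Z.1 line, -8.87 in DKO and -5.15 in WT. Its 2 other probes were likewise above background in WT alone, at -5.26 and -6.57. SDC2 was thus at least 3.41-fold lower in DKO and at least 4.39-fold lower in the H2A.Z.1 line than in WT. With normexp the log2 differences were -0.40 and -0.82, both under 2-fold. SDC3 was not well above background on any array.

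**Figure D1:**
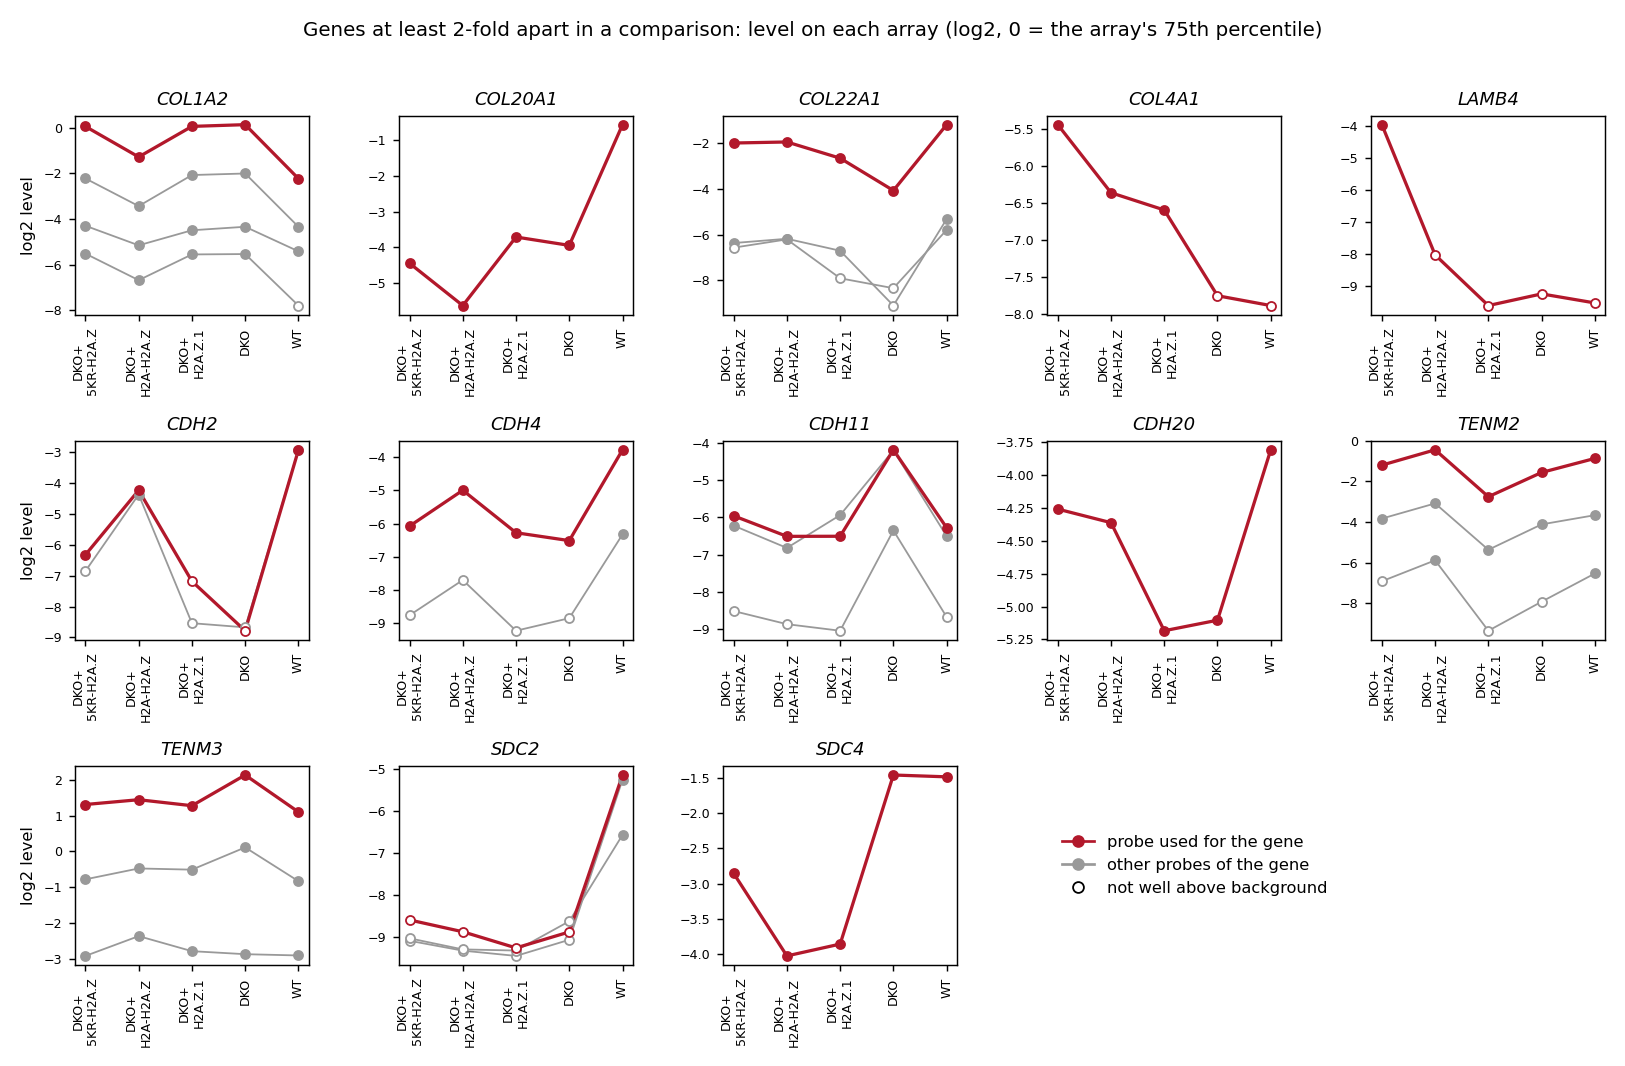
Each panel shows 1 gene that was at least 2-fold apart in at least 1 comparison, with its log2 level (0 is the array's 75th percentile) on each of the 5 arrays, 1 culture each. Lines join the values of 1 probe and do not mark an order of the lines, the vertical scale differs between panels, and open points are not well above background. CDH2, CDH4, COL20A1 and SDC2 were highest in WT, CDH11 was highest in DKO, and LAMB4 was above background in the 5KR-H2A.Z line alone.

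Among the collagens that form fibrils, COL1A2, a chain of the type I collagen of bone, skin and tendon, differed most between lines. Its level was 0.06 in the 5KR-H2A.Z line, -1.28 in the H2A-H2A.Z line, 0.06 in the H2A.Z.1 line, 0.14 in DKO and -2.23 in WT. The lines formed 3 steps, with WT lowest, the H2A-H2A.Z line between, and the other 3 within 0.08 of each other. COL1A2 was 5.15-fold higher in DKO than in WT by 4 of 4 usable probes, and 4.88-fold higher in the H2A.Z.1 line than in WT by 3 of 4. It was 2.52-fold higher in the 5KR-H2A.Z line than in the H2A-H2A.Z line on the same slide, and 2.53-fold lower in the H2A-H2A.Z line than in the H2A.Z.1 line across slides. These differences kept their side of the 2-fold threshold in all 9 other settings.

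The other 3 fibrillar chains did not follow COL1A2. COL2A1 of cartilage, the brightest collagen probe, had levels of 3.61 in the 5KR-H2A.Z line, 3.39 in the H2A-H2A.Z line, 3.19 in the H2A.Z.1 line, 3.82 in DKO and 3.38 in WT, a range of 0.64. That level rests on 1 of 6 probes. Of the others 3 were well above background, each on 1 array and none above -6.08, and 2 were not above it on any, so detection of COL2A1 rests on that probe. COL5A1 ranged over 0.55 between arrays and COL3A1 over 0.80, and neither was apart in any comparison by the probe used. For COL3A1 a further probe was well above background in WT alone, at -9.20 in DKO against -6.45 in WT.

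COL20A1, a collagen of the group that associates with the surface of fibrils, was highest in WT. It had a level of -4.44 in the 5KR-H2A.Z line, -5.63 in the H2A-H2A.Z line, -3.71 in the H2A.Z.1 line, -3.94 in DKO and -0.56 in WT. WT stood far above the 4 knockout lines, which spread over 1.92 among themselves. COL20A1 was 10.4-fold lower in DKO and 8.87-fold lower in the H2A.Z.1 line than in WT. It was 2.27-fold higher in the 5KR-H2A.Z line than in the H2A-H2A.Z line, and 3.79-fold lower in the H2A-H2A.Z line than in the H2A.Z.1 line. With normexp the log2 differences from WT were -2.46 in DKO and -2.52 in the H2A.Z.1 line. The 2 that involve the H2A-H2A.Z line were 0.50 and -0.93, both under 2-fold, and with spike-in scaling the first was 0.95. COL20A1 has 1 probe.

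COL22A1, known from junctions between tissues such as that of muscle and tendon, was also highest in WT but had its lowest value in DKO. Its level was -1.99 in the 5KR-H2A.Z line, -1.94 in the H2A-H2A.Z line, -2.65 in the H2A.Z.1 line, -4.07 in DKO and -1.18 in WT. It was 7.40-fold lower in DKO than in WT by 3 of 3 probes. The H2A.Z.1 line lay between, 2.67-fold higher than DKO and 2.77-fold lower than WT. The log2 difference between the H2A.Z.1 line and DKO was 0.81 with normexp, and that between DKO and WT was -2.04. Alone among the members, COL22A1 was apart in all 3 comparisons within that slide. Both lines on the other slide were within 2-fold of the H2A.Z.1 line by the probe used.

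COL14A1, the brightest probe of this group, had levels of -1.53 in the 5KR-H2A.Z line, -1.73 in the H2A-H2A.Z line, -2.10 in the H2A.Z.1 line, -1.42 in DKO and -1.94 in WT, and was not apart in any comparison. Another 3 of its 9 probes were well above background in WT alone. They read -9.15 to -8.86 in DKO and -6.77 to -6.54 in WT. COL9A1, a chain of type IX collagen of cartilage, was likewise well above background in WT alone, at -6.67, too near the background of the other arrays for a bound of 2-fold. Its partner chains COL9A2 and COL9A3 were well above background on all 5 arrays and each ranged over 0.43.

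Of the basement membrane genes, LAMB4, a laminin beta chain, was well above background in 1 line. Its level was -3.95 in the 5KR-H2A.Z line, -8.02 in the H2A-H2A.Z line, -9.60 in the H2A.Z.1 line, -9.24 in DKO and -9.52 in WT, the last 4 not well above background. It was at least 8.88-fold higher in the 5KR-H2A.Z line than in the H2A-H2A.Z line on the same slide and at least 10.1-fold higher than in the H2A.Z.1 line. With normexp these log2 differences were 1.23 and 1.38, still past 2-fold but below the bounds. The same probe carried both values, and the gene's other probe was not well above background on any array. LAMB2, the brightest laminin probe, had levels of -2.27 in the 5KR-H2A.Z line, -3.01 in the H2A-H2A.Z line, -2.04 in the H2A.Z.1 line, -2.39 in DKO and -2.95 in WT. Its largest difference, 1.96-fold lower in the H2A-H2A.Z line than in the H2A.Z.1 line, stayed under the threshold. LAMA1 was not well above background on any array.

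COL4A1, which assembles with COL4A2 into the collagen network of basement membranes, had levels of -5.44 in the 5KR-H2A.Z line, -6.36 in the H2A-H2A.Z line, -6.60 in the H2A.Z.1 line, -7.76 in DKO and -7.89 in WT. It was not well above background in DKO and WT. Of its 4 probes, 1 was well above background on any array, so its detection and the difference below rest on that probe. COL4A1 was 2.23-fold higher in the 5KR-H2A.Z line than in the H2A.Z.1 line, a difference across slides that was past 2-fold in 5 of 8 other settings. COL4A2, its neighbour in the genome and its partner in the protein, was not well above background on any array. COL8A1, another collagen that forms networks, had levels of -3.95 in the 5KR-H2A.Z line, -4.36 in the H2A-H2A.Z line, -4.63 in the H2A.Z.1 line, -4.0 in DKO and -4.01 in WT. COL18A1 ranged over 0.90 between arrays, with its lowest level, -6.63, in the H2A.Z.1 line. The 3 chains of type VI collagen were uneven in detection. COL6A3 had levels of -3.65 in the 5KR-H2A.Z line, -3.86 in the H2A-H2A.Z line, -3.98 in the H2A.Z.1 line, -3.54 in DKO and -3.87 in WT. COL6A1 was well above background on 4 arrays, DKO excepted, and COL6A2 in the H2A-H2A.Z line alone by the probe used. For COL8A1, COL6A1 and COL6A3, 1 of 3 probes each was well above background on any array.

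None of the 7 integrin subunits was apart in any of the 6 comparisons by the probe used. Among all named genes, 3.96% passed the threshold upward and 9.77% downward from WT to DKO. From the H2A.Z.1 line to the 5KR-H2A.Z line these shares were 1.64% and 0.346%. A count of 0 among 7 genes is thus no sign that integrins vary less than other genes, which was not tested. ITGB1, the beta chain shared by most receptors for collagen and laminin, had levels of 4.09 in the 5KR-H2A.Z line, 3.97 in the H2A-H2A.Z line, 3.86 in the H2A.Z.1 line, 4.14 in DKO and 3.86 in WT, a range of 0.28. ITGA3, a partner of it in a laminin receptor, had levels of 2.08 in the 5KR-H2A.Z line, 2.03 in the H2A-H2A.Z line, 2.02 in the H2A.Z.1 line, 2.18 in DKO and 2.42 in WT. ITGB2, the beta chain of the leukocyte integrins, came nearest to the threshold by the probe used. It had levels of 2.31 in the 5KR-H2A.Z line, 2.03 in the H2A-H2A.Z line, 2.35 in the H2A.Z.1 line, 1.41 in DKO and 1.94 in WT. DKO was lowest, and the H2A.Z.1 line stood 1.92-fold above it. ITGB3 ranged over 0.72, ITGA1 over 0.64 and ITGA6 over 1.04, while ITGA9 was not well above background in DKO and WT. ITGA9 read -6.65 in the 5KR-H2A.Z line, -7.03 in the H2A-H2A.Z line, -6.57 in the H2A.Z.1 line, -7.24 in DKO and -8.93 in WT. In the H2A.Z.1 line it was at least 1.55-fold above WT, a bound that leaves room for a larger difference. A further probe of ITGA6 was past 2-fold lower in the 5KR-H2A.Z line than in the H2A.Z.1 line. It read -7.14, not well above background, and -6.03. ITGA8 and ITGB5 were not well above background on any array. The 3 genes brought in by the ITGB prefix were not apart in any comparison either. ITGB1BP3 lay at 7.71 in the 5KR-H2A.Z line, 7.59 in the H2A-H2A.Z line, 7.45 in the H2A.Z.1 line, 7.98 in DKO and 7.54 in WT.

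**Figure D2:**
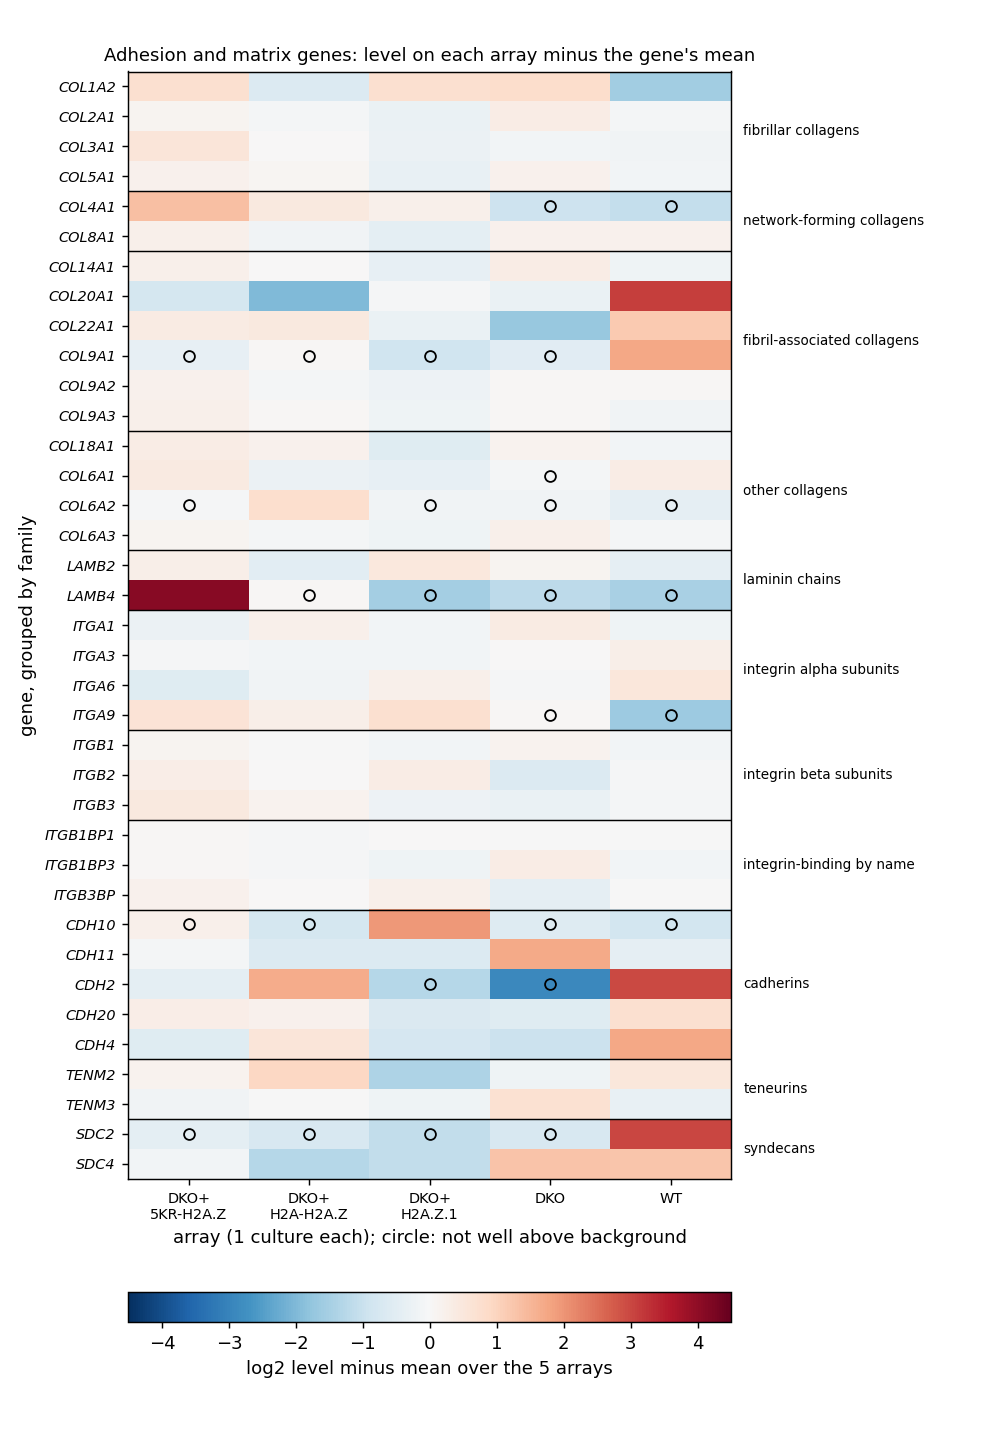
Each row is 1 of the 37 adhesion and matrix genes, grouped by family, and each column is 1 array. The colour gives the gene's log2 level on that array minus its mean over the 5 arrays, and circles mark values not well above background. The rows of COL20A1, CDH2 and SDC2 are strongest in WT and the row of LAMB4 in the 5KR-H2A.Z line, while the rows of the integrin subunits other than ITGA9 stay near 0.

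The comparison of DKO with WT asks what goes with the loss of H2A.Z. Of 32 members that could be compared, 3 were at least 2-fold higher in DKO (COL1A2, CDH11 and TENM3) and 6 at least 2-fold lower (CDH2, CDH4, CDH20, COL20A1, COL22A1 and SDC2). Over all 4399 named genes compared, 3.96% were that much higher and 9.77% that much lower, so the members' shares of 9.38% and 18.8% lay above both. The members were dim, and 18 of the 32 belonged to the dimmest 25% of genes, where 6.68% were higher and 16.7% lower. Of the 9 members apart, 6 were among these 18, and 5 of the 6 were lower. SDC2 passed the filter, and CDH2 was compared here, through WT alone, so neither could come out higher in DKO. The shares over all named genes were formed with the same filter. The median difference was 0.01 for the members and 0.15 for all named genes on the log2 scale. The cadherins ran against each other, with 1 of the 4 compared higher and 3 lower, as did the collagens, with 1 higher and 2 lower.

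The comparison of the H2A.Z.1 line with DKO sets the library labelled as expressing intact H2A.Z.1 against the double knockout. Of 32 members compared, 1 was at least 2-fold higher in the H2A.Z.1 line (COL22A1), where 7.39% of all named genes were, and 3 were at least 2-fold lower (CDH11, SDC4 and TENM2), where 2.4% were. Of the 3, 2 were among the 18 members in the dimmest 25% of genes, where 6.1% were lower. The median difference was -0.14 for the members and -0.21 for all named genes. Set beside the comparison of DKO with WT, which shares the DKO array, CDH11 and COL22A1 were apart in opposite directions in both, and CDH4, CDH20, COL20A1, COL1A2 and TENM3 were under 2-fold here. CDH2 and SDC2 were not well above background on either array and were not compared.

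The comparison of the H2A.Z.1 line with WT sets the same library against the wild type. Of 35 members compared, 1 was at least 2-fold higher in the H2A.Z.1 line (COL1A2), against 1.5% of all named genes, and 8 were at least 2-fold lower (CDH2, CDH4, CDH20, COL20A1, COL22A1, SDC2, SDC4 and TENM2), against 3.11%. The 8 were 22.9% of the members compared, and 6 of them were among the 21 members in the dimmest 25% of genes, where 10.5% of genes were lower. SDC2 passed the filter, and CDH2 was compared here, through WT alone, so neither could come out higher in the H2A.Z.1 line. The median difference was -0.19 for the members and -0.03 for all named genes. Of the 35, 20 lay within 1.5-fold, which is 57.1%, where 87.9% of all named genes did. That share was not computed for the dimmest 25% of genes, so the part of dim signal in it was not tested.

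The mutant lines were set against the H2A.Z.1 line across slides. In the 5KR-H2A.Z line, 4 of 34 members were at least 2-fold higher than in the H2A.Z.1 line (LAMB4, TENM2, COL4A1 and SDC4), against 1.64% of all named genes, and 0 were at least 2-fold lower, against 0.346%. Of the 4, 3 were among the 20 members in the dimmest 25% of genes, where 6.19% were higher. LAMB4 passed the filter through the 5KR-H2A.Z line alone, so it could not come out lower there. The median difference was 0.43 for the members and 0.08 for all named genes, and 25 of the 34 members lay above 0. Most of all named genes lay above 0 as well, with their 25th percentile at -0.07. Scaling to the spike-in probes moved the median of all named genes in this comparison to -0.17. In the H2A-H2A.Z line, 3 of 34 members were at least 2-fold higher than in the H2A.Z.1 line (CDH2, TENM2 and CDH4), against 1.33% of all named genes, and 2 were at least 2-fold lower (COL20A1 and COL1A2), against 0.734%. Of the 5, 3 were among the 20 members in the dimmest 25% of genes, where 5.22% were higher and 1.81% lower. CDH2 was compared here through the H2A-H2A.Z line alone, so it could not come out lower there. Both comparisons share the array of the H2A.Z.1 line, on which 13 of the 28 members well above background on every array had their lowest level, against 25.6% of all named genes.

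Within their own slide the mutant lines differed from each other. Of 34 members, 4 were at least 2-fold higher in the 5KR-H2A.Z line than in the H2A-H2A.Z line (LAMB4, COL1A2, COL20A1 and SDC4), against 1.38% of all named genes, and 2 were at least 2-fold lower (CDH2 and CDH4), against 1.63%. The median difference was 0.19 for the members and 0.05 for all named genes. Of the 6 genes, 5 belonged to the dimmest 25%, where 4.24% of genes were higher and 5.75% lower. LAMB4 passed the filter through the 5KR-H2A.Z line alone, so it could not come out lower there.

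**Figure D3:**
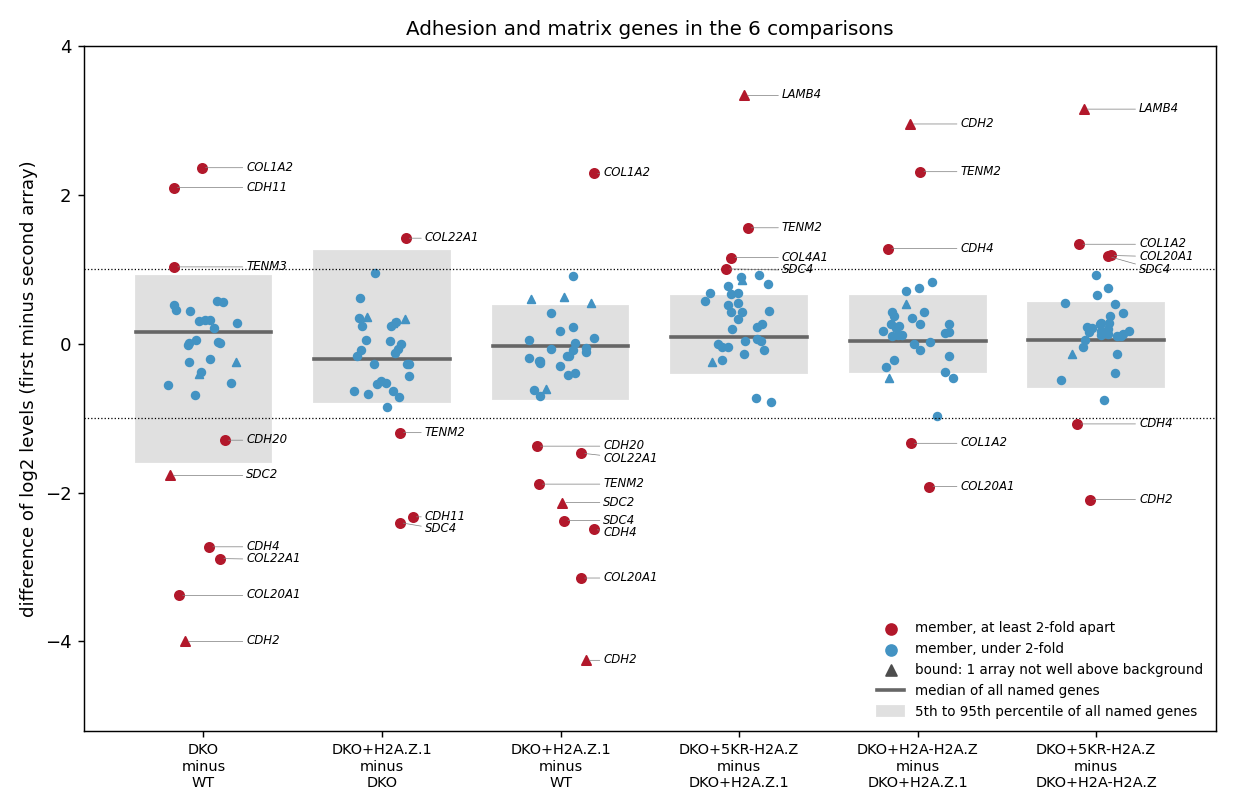
Each point is 1 adhesion or matrix gene in 1 of the 6 comparisons, placed by the difference of its log2 levels, the line named on top minus the line below it. Red points are at least 2-fold apart (dotted lines), triangles are bounds, grey boxes span the 5th to 95th percentile of all named genes and grey lines mark their median. CDH2 lies at -4.0 in DKO minus WT and -4.25 in the H2A.Z.1 line minus WT, and LAMB4 at 3.33 in the 5KR-H2A.Z line minus the H2A.Z.1 line.

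Over the 6 comparisons, 13 of the 37 members were apart at least once and 24 never. The 13 comprised 4 of 5 cadherins, 4 of 16 collagens, both teneurins, both syndecans and 1 of 2 laminin chains. The share of all named genes apart at least once was not computed, so whether these counts are high cannot be said. In each of the 6 comparisons the largest difference among the 24 was read, counting a bound as its value. The values ran from 1.49-fold, ITGA1 higher in DKO than in WT, to 1.96-fold, LAMB2 lower in the H2A-H2A.Z than the H2A.Z.1 line. Single genes among the 24 could differ less, as ITGB1BP1 did. The 28 members well above background on all 5 arrays had a median range over the arrays of 0.76, where all 4113 named genes of that kind had 0.54. The range was not computed for genes of like brightness. Of these 28, 11 had their highest level in DKO and 6 in WT, against 48.0% and 16.9% of all named genes.

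Genes that work with these families were read from lists of partners. Of integrin adaptors and signalling proteins, 14 were compared between DKO and WT. FYN, a kinase of the Src family, was at least 3.35-fold lower in DKO, at -9.05 in DKO and -5.18 in WT. None of 13 was apart between the H2A.Z.1 line and DKO. The 3 cadherin partners measured, which are catenins and related proteins, held no gene apart between these lines.

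Of 5 collagen processing genes, PLOD1, a lysyl hydroxylase of collagen, was apart between DKO and WT and between the H2A.Z.1 line and DKO, and the other 4 were under 2-fold in both. Its level was -2.42 in the 5KR-H2A.Z line, -0.40 in the H2A-H2A.Z line, -1.21 in the H2A.Z.1 line, -3.42 in DKO and -1.01 in WT. It was 5.32-fold lower in DKO than in WT and 4.64-fold higher in the H2A.Z.1 line than in DKO, which left the H2A.Z.1 line within 2-fold of WT. It was also 4.06-fold lower in the 5KR-H2A.Z line than in the H2A-H2A.Z line. PLOD1 has 1 usable probe. P4HA2, a subunit of a prolyl hydroxylase of collagen, was 2.70-fold lower in the H2A.Z.1 line than in WT by 2 of 2 probes, at -4.84 in the H2A.Z.1 line and -3.40 in WT.

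Of 10 other matrix proteins compared between DKO and WT, AGRN, the proteoglycan agrin, was at least 2.43-fold lower in DKO, at -9.15 in DKO and -5.64 in WT. It was -5.60 in the 5KR-H2A.Z line, so that this line and WT were the 2 in which it was well above background. Of 9 proteases and inhibitors, SERPINE2, a secreted inhibitor of serine proteases, had levels of 0.39 in the 5KR-H2A.Z line, -0.57 in the H2A-H2A.Z line, 0.20 in the H2A.Z.1 line, -0.10 in DKO and -2.49 in WT. It was 5.25-fold higher in DKO than in WT by 2 of 2 probes, and all 4 knockout lines lay above WT. MMP7 was at least 2.86-fold below WT in DKO. MMP2, a gelatinase, was at least 2.15-fold below WT in DKO and at least 2.05-fold higher in the H2A.Z.1 line than in DKO. It read -6.88 in DKO, not well above background, -5.84 in the H2A.Z.1 line and -5.77 in WT. The bounds of FYN, AGRN, MMP7 and MMP2 rest on 1 usable probe each and are given without any other processing setting. Bounds of the dim members CDH2 and SDC2 did not hold under normexp. Of 11 other adhesion receptors, CD81, a tetraspanin of the B cell coreceptor complex, was 2.43-fold higher in DKO than in WT, at 3.36 in DKO and 2.08 in WT, by 2 of 3 probes, and none of 12 was apart between the H2A.Z.1 line and DKO.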

How the data were processed

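RNA from 5 DT40 cultures was measured. Per the labels' protocols, 100 ng of total RNA was the input for cyanine 3 labelling and hybridisation to one-colour Agilent arrays. Per the file headers, Agilent Feature Extraction 11.5.1.1 quantified the images, and the deposited processed signal is a linear fluorescence intensity from which background was already subtracted. The authors' value table holds the same intensity times 1 constant per array, from 1.03 to 1.23, with column medians of 92.1 to 121.7 and without logarithm or centring. The sources used here do not say how the constant was set.

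The log2 of the processed signal minus the array's 75th percentile over non-control spots is the level used throughout. Non-uniform spots and population outliers, between 2 and 37 per array, were dropped and replicate spots averaged. The files used hold no gene name column, so probes were named through the RefSeq accession, matched without its version to a gene table of assembly GRCg7b. This named 11935 of 43603 probes for 5381 genes, and 1125 probes with such an accession did not match. Since the array annotation refers to galGal3, coordinates are left out. A gene was read from its probe with the highest mean. It was compared where that probe was well above background on either array, and bounds were formed as stated with the results. Of the members, 8 had 1 probe and 29 had more.

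With 1 array per line no test was possible, and the number of arrays limits the precision. Counts past 2-fold stand beside the same share over all named genes. The same steps were checked on simulated data with changes put in. The changes were put only into brighter genes well above background on every array, so that check does not cover dim genes.

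Named with values were every member at least 2-fold apart in a comparison and the member with the highest mean signal in each family, and from partner lists up to 4 genes per list apart in DKO minus WT or the H2A.Z.1 line minus DKO. COL3A1, COL5A1, COL6A1, COL6A2, COL9A1, COL9A2, COL9A3, COL18A1, CDH10, ITGA1, ITGA6, ITGA9, ITGB2, ITGB3 and P4HA2 were named beyond that rule after their values were seen. Some partner and marker results are not reported here. The members and lists were chosen with earlier results of these data known. The alternatives were normexp with an offset of 50 (run with limma on the median spot and background intensity, since the deposited files used hold no mean signal), quantile normalization, median centring, scaling to 8 spike-in probes, a stricter filter and none, the median over a gene's probes, the authors' table, and marked spots kept. Calculations used Python 3.11.15, numpy 2.4.6, pandas 2.3.3, R 4.3.3 and limma 3.58.1.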

Additional observations from a re-analysis of the deposited data

How the results depend on the processing

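Each count of members at least 2-fold apart was recomputed under 9 other settings. Of 108 such counts, 83 stayed within 1.5 times the main count and 25 did not, and no gene called apart changed sign in any setting. Of 37 calls, 20 were past 2-fold in every setting that compared them. Under normexp, which damps dim signals, 1 member was higher and 3 lower in DKO than in WT, 0 were higher in the H2A.Z.1 line than in DKO, 2 were higher in the 5KR-H2A.Z line and 1 lower in the H2A-H2A.Z line than in the H2A.Z.1 line, and 2 were higher and 0 lower in the 5KR-H2A.Z line than in the H2A-H2A.Z line. Members higher in the H2A.Z.1 line than in DKO numbered 2 with quantile normalization, 3 with spike-in scaling, 2 with the authors' table, 2 with no filter and 3 with the median over probes. Members higher in the 5KR-H2A.Z line than in the H2A.Z.1 line numbered 2 with quantile normalization, 2 with spike-in scaling, 2 where all 5 arrays had to be above background and 9 with no filter, and 1 was lower with spike-in scaling and with the median over probes. Members higher in the 5KR-H2A.Z line than in the H2A-H2A.Z line numbered 2 with spike-in scaling and 8 with no filter, and 1 was lower with the stricter filter. With no filter, which adds genes at background, 6 were higher in DKO than in WT, 5 lower in the H2A.Z.1 line than in DKO, and 7 higher in the H2A-H2A.Z line than in the H2A.Z.1 line. With the median over probes 4 were higher in the H2A.Z.1 line than in WT. Beyond the settings' own construction, the cause of these shifts was not tested.

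Spike-in scaling moved the median of all named genes to -0.35 for DKO minus WT (0.15 otherwise) and to 0.34 for the H2A.Z.1 line minus DKO (-0.21 otherwise). It gave 2 members higher and 9 lower in DKO than in WT, and 3 higher and 2 lower in the H2A.Z.1 line than in DKO. Median centring, quantile normalization and the authors' table each gave 3 members higher and 3 lower in the H2A-H2A.Z line minus the H2A.Z.1 line. The median over probes, which sets no bound, gave larger log2 differences for CDH2 (-5.81) and SDC2 (-3.72) in DKO minus WT and for LAMB4 in the 5KR-H2A.Z line minus the H2A.Z.1 line (5.65). Slide as a block could not be fitted across slides. No paired analysis was possible because each line has 1 array. Dim signal limits the cadherins, SDC2, LAMB4 and COL4A1.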
